A study of Homo sapiens with 6 samples.

Results

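The genes described here are 10 cytochromes P450 of drug and fatty acid metabolism, CYP1A1, CYP1B1, CYP2B6, CYP2S1, CYP3A4, CYP3A5, CYP4F2, CYP4F3, CYP4F11 and CYP4F12. They are read from the 22 probe sets, of 54675 on the array, whose annotation names 1 or several of these genes and no other gene, and all 22 are accounted for below. HT29 is a line of human colon adenocarcinoma cells, grown with fetal calf serum and then treated without it. Cells of the NS398 group received 100 µM NS398 in DMSO, which blocks cyclooxygenase-2 (COX2) selectively, for 72 h, and the control group had 0.1% DMSO. Total RNA of 3 samples per group was hybridised on 1 HG-U133 Plus 2.0 array each. The samples of a group are described as biological replicates, all of this single line, and the labels do not number separate cultures, so the spread between these samples is all that errors and p-values reflect.

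Cytochromes P450 are haem enzymes that insert 1 oxygen atom of O2 into a substrate, with electrons that the reductase POR passes on from NADPH. Members of families CYP1, CYP2 and CYP3 oxidise drugs and foreign compounds and are known for induction by the substances that they clear, through the aryl hydrocarbon receptor AHR or the nuclear receptors PXR (NR1I2) and CAR (NR1I3). Enzymes of the CYP4F subfamily hydroxylate the far end of fatty acids, leukotrienes and vitamin K, and so act on relatives of arachidonic acid, the substrate of COX2. In the gut wall, CYP3A enzymes oxidise many drugs taken by mouth.

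The genes were chosen by their log2 signals in these same arrays, NS398 against control. Differences of the 10 genes are therefore a description, with no p given for any of them, and counts of those that pass a threshold are printed only beside the share of all probe sets that do. A difference is the mean log2 signal of the NS398 arrays less that of the control arrays, followed by the standard error (SE) from limma, with 3 arrays per group. Group signals are geometric means of 3 arrays. Background was set on each array as the 95th percentile of the 135 probe sets that name 1 olfactory receptor gene, and ranged from 106 to 186. These receptors serve mainly in the nose, but whether HT29 cells lack all of them was not tested. A lower signal from bulk RNA cannot tell fewer cells of a type from less RNA per cell. Where all arrays of a group lay below background, a difference is given only as a bound, and where both groups did, no fold is given. A probe set name ending in x_at marks probes that can also bind other transcripts, and s_at marks probes shared by several transcripts.

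Promoter sequences show how far neighbours of this family resemble each other, and those of CYP2B6, CYP4F11 and the CYP3A pair, to which the results below return, are printed. RefSeq (GRCh38.p14) gave a promoter, from 250 bases before to 50 bases after the start of the transcript, for 8 of the 10 genes, all but CYP1B1 and CYP4F12. Capitals mark matches, on either strand, to GCGTG, the AHR core site, TGACNNNGC, the core of the antioxidant response element, AGGTCA, a nuclear receptor half-site, an everted repeat of half-sites (TGAACT, 6 bases of any kind, then AGGTCA, so that it contains the half-site motif), or TATAAA, the TATA box. Each sequence runs 5′ to 3′ along the transcript.
CYP2B6 (chr19:40991032-40991331, plus strand): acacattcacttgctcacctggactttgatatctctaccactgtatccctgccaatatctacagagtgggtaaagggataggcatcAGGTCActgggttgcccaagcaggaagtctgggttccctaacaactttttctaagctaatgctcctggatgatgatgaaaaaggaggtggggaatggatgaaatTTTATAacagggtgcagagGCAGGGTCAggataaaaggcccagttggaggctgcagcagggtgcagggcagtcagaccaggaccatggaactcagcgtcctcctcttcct
CYP4F11 (chr19:15934818-15935117, minus strand): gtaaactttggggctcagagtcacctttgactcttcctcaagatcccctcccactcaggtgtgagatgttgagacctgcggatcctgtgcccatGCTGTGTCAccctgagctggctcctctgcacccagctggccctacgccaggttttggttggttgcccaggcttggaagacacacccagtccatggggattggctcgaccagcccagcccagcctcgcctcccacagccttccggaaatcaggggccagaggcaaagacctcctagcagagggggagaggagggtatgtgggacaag
CYP4F11 (chr19:15934480-15934779, minus strand): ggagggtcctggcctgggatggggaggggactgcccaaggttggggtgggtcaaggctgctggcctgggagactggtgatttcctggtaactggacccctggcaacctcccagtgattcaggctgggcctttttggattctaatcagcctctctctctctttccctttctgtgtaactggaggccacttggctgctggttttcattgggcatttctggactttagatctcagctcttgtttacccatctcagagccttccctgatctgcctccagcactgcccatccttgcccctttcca
CYP3A4 (chr7:99784135-99784434, minus strand): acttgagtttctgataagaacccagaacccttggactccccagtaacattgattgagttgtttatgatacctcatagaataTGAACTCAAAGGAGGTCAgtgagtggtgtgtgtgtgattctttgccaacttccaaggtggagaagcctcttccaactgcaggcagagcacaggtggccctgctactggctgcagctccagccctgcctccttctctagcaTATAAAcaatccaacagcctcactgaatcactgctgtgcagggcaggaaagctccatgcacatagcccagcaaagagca
CYP3A5 (chr7:99679947-99680246, minus strand): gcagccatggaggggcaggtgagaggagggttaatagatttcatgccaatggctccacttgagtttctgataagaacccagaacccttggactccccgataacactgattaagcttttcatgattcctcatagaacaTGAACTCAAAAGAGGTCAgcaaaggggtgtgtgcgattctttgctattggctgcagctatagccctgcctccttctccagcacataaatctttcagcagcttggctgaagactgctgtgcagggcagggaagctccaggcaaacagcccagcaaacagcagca

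The everted repeat was found in 3 of 35116 promoters of this length (0.0085%), those of CYP3A4, CYP3A5 and ITGB1BP2. It began 169 bases before the start in CYP3A4 and 113 bases before it in CYP3A5. AGGTCA occurred in 13.8% of all promoters and in those of CYP2B6, CYP2S1, CYP3A4 and CYP3A5. TGACNNNGC occurred in 13.3% of all promoters, and in CYP2B6 and the outer of the 2 CYP4F11 promoters. GCGTG occurred in 36.5% of all promoters and, among the 8 genes, in that of CYP1A1, 57 bases before its start. TATAAA occurred in 11.5% of all promoters and in those of CYP1A1, CYP2B6 and CYP3A4. In CYP1A1 and CYP3A4 it lay on the strand of the transcript, 32 and 29 bases before the start. In CYP2B6 the match lay on the opposite strand, 60 bases before the start. In a global alignment the outer CYP4F11 promoter shared 218 of 300 bases with that of its neighbour CYP4F2, and the inner one 212 with that of CYP4F3, while CYP3A4 and CYP3A5 shared 208. All other pairs among the 9 promoters shared at most 185. These matches describe letters in these windows.

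Of those of the 10 genes above background on all 6 arrays by their brightest probe set, CYP2B6 had the largest difference. CYP4F11 alone of the 10 was below background on all control arrays and above it on all NS398 arrays. Outside the 10, CYP2A6 and the fibroblast marker LUM, both described below, had that pattern too. Directions here follow the labels of the arrays, and they oppose those the study gives for most of the genes it discusses by direction. Were the labels exchanged, every direction given here would turn. CYP2B6, a liver enzyme that oxidises bupropion, efavirenz and cyclophosphamide, had signals of 2223, 1903 and 2302 in the control and 8641, 7644 and 8391 in the NS398 arrays on its brighter probe set, 206755_at. Every NS398 array lay above every control array, and the difference was 1.94 ± 0.10 (SE, n = 3 per group), or 3.85-fold. On the other CYP2B6 probe set, 217133_x_at, the signals were 643, 186 and 514 in control and 1970, 2254 and 2534 in NS398 arrays, a difference of 2.51 ± 0.56. Control replicate 2 was the lowest there and lay just below its background of 186. A further probe set names CYP2B6 together with its pseudogene CYP2B7P and is not among the 22. Its group signals were 3652 and 12852, a difference of 1.82 ± 0.24. Transcripts of the gene and of the pseudogene are nearly alike and cannot be told apart by such probes.

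CYP4F11, which hydroxylates long fatty acids and vitamin K, had signals of 27.1, 33.8 and 24.5 in control and 250.5, 257.3 and 238.7 in NS398 arrays on its single probe set. The NS398 arrays lay close together, and all 3 lay above their background while all 3 control arrays lay below theirs. The group signals were 28.2 and 249, and against the background the NS398 signal was at least 1.61-fold higher. With the background at the 75th percentile of the olfactory receptor probe sets, it was at least 7.01-fold higher. The genes whose mean-centred log2 profile over the 6 arrays was closest to that of CYP4F11, among 10668 genes with a mean log2 signal above 7, were AKR1C1, CHAC1 and ABCG1. Their root mean square differences from it were 0.23, 0.29 and 0.30. All 6 values of such a profile carry the group difference, and since the control signals of CYP4F11 lay below background, the size of its difference, and with it these distances, is not well measured.

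**Figure D1:**
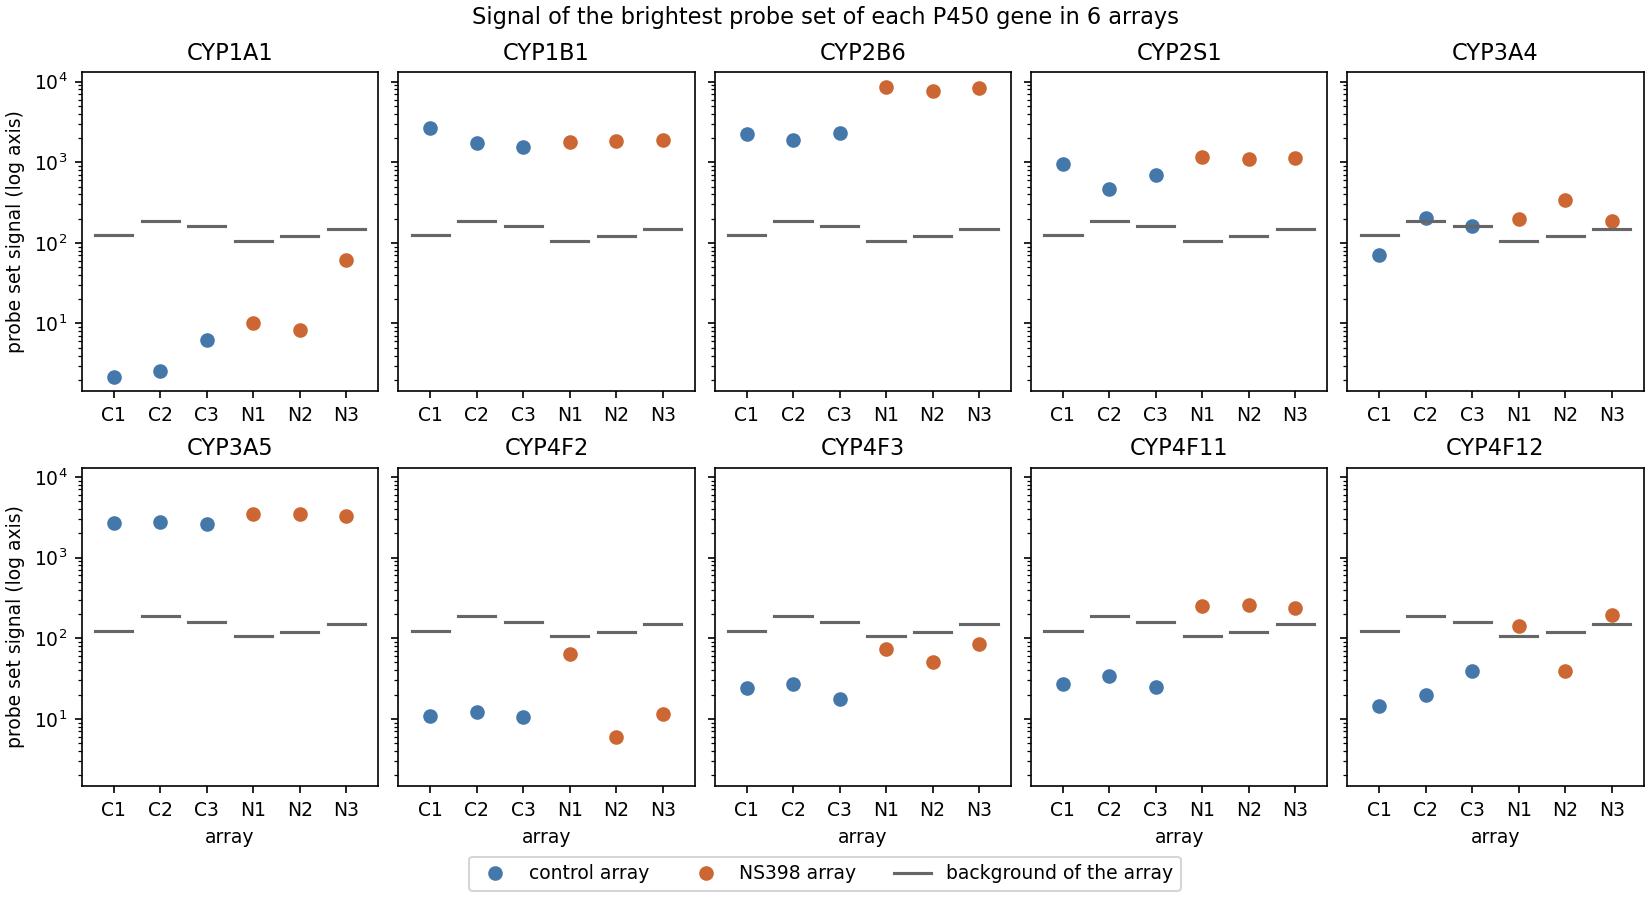
Probe set signal (log axis) of the brightest probe set of each gene in control arrays C1 to C3 and NS398 arrays N1 to N3 (points), with the background of each array (grey bars). CYP2B6 lay between 7644 and 8641 in the NS398 arrays against 1903 to 2302 in control arrays, CYP4F11 crossed the background, and CYP1A1, CYP4F2 and CYP4F3 stayed below it on all 6 arrays.

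The other 3 members of the CYP4F subfamily were dim. CYP4F12, a fatty acid and antihistamine hydroxylase of liver and gut, had signals of 14.4, 19.9 and 38.7 in control and 141.8, 39.2 and 196.3 in NS398 arrays. NS398 replicate 2 lay close to control replicate 3, and the other 2 NS398 arrays lay above their background. CYP4F3, the leukotriene B4 hydroxylase of neutrophils, had 24.3, 27.0 and 17.5 in control and 74.4, 51.4 and 84.3 in NS398 arrays on its own probe set. The groups did not overlap, but all 6 values lay below background. At the 75th percentile of the olfactory receptor probe sets, used above for CYP4F11, all NS398 arrays of CYP4F3 lay above background and all control arrays below it. CYP4F2, which hydroxylates vitamin K and arachidonic acid, had 10.8, 12.0 and 10.6 in control and 63.0, 5.9 and 11.4 in NS398 arrays. Its NS398 arrays lay on both sides of the control arrays. The probe set that names both CYP4F2 and CYP4F3 ranged from 5.7 to 17.7 over the 6 arrays with overlapping groups, also below background. In the RefSeq order of protein-coding genes CYP4F3 lies next to CYP4F12 and CYP4F2 next to CYP4F11.

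CYP3A5 lay well above background and differed by little. CYP3A5, which shares most drug substrates with CYP3A4, had signals of 2672, 2747 and 2609 in control and 3511, 3483 and 3314 in NS398 arrays on 214234_s_at. The difference of 0.36 ± 0.03 was small, but the arrays of a group lay so close together that the groups did not overlap. On 205765_at the signals were 2671, 2554 and 2705 against 3618, 3333 and 3373, a difference of 0.38 ± 0.04. On 214235_at they were 1577, 2164 and 1853 against 1931, 1662 and 1937, and the groups overlapped with a difference of -0.01 ± 0.15. The last, 243015_at, lay between 54.7 and 109.0 on the 6 arrays, below background. The median log2 signal of an array was 0.12 higher in NS398 than in control arrays, and after median centring of the arrays the first 2 differences became 0.24 and 0.26.

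For CYP3A4, the main drug-oxidising P450 of adult liver and small intestine, 5 probe sets gave signals near or below background. The brightest by its mean, 205999_x_at, had 70.1, 201.6 and 160.8 in control and 196.4, 339.1 and 187.2 in NS398 arrays, a difference of 0.82 ± 0.54 with overlapping groups. That difference was 0.36 without control replicate 1 and 0.54 without NS398 replicate 2. On 205998_x_at, above background on 3 of 6 arrays, the difference was -0.02 ± 0.42. On 210726_at the signals were 11.2, 30.9 and 57.3 against 71.6, 126.6 and 50.8, with only NS398 replicate 2 above background. The remaining probe sets, 231704_at and 208367_x_at, lay between 4.6 and 105.7 and below background on all 6 arrays. Of the CYP3A pair, whose promoters both hold the everted repeat, only CYP3A5 thus had probe sets above background on all 6 arrays.

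CYP1B1 and CYP1A1, both known AHR targets, oxidise polycyclic aromatic hydrocarbons. CYP1B1 had signals of 2685, 1721 and 1563 in control and 1784, 1826 and 1915 in NS398 arrays on 202436_s_at. Control replicate 1 was the highest, the groups overlapped, and the difference was -0.07 ± 0.24. The probe sets 202437_s_at and 202435_s_at gave 0.05 ± 0.17 and -0.06 ± 0.34, again with overlapping groups. The fourth, 202434_s_at, was dim, with 148.1, 75.8 and 116.0 in control and 91.7, 51.6 and 19.4 in NS398 arrays, and only control replicate 1 passed its background. CYP1A1 had 2.2, 2.6 and 6.2 in control and 10.1, 8.3 and 60.9 in NS398 arrays. The groups did not overlap, yet all 6 signals lay far below background, with NS398 replicate 3 apart from the rest.

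CYP2S1, a P450 of epithelia outside the liver that is also known as an AHR target, had signals of 961, 468 and 692 in control and 1158, 1100 and 1122 in NS398 arrays. The NS398 arrays were close together and above all control arrays, which spread more widely, and the difference was 0.73 ± 0.30, or 1.66-fold. Without control replicate 1, the highest control, it was 0.99, and without control replicate 2, the lowest, it was 0.47.

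**Figure D2:**
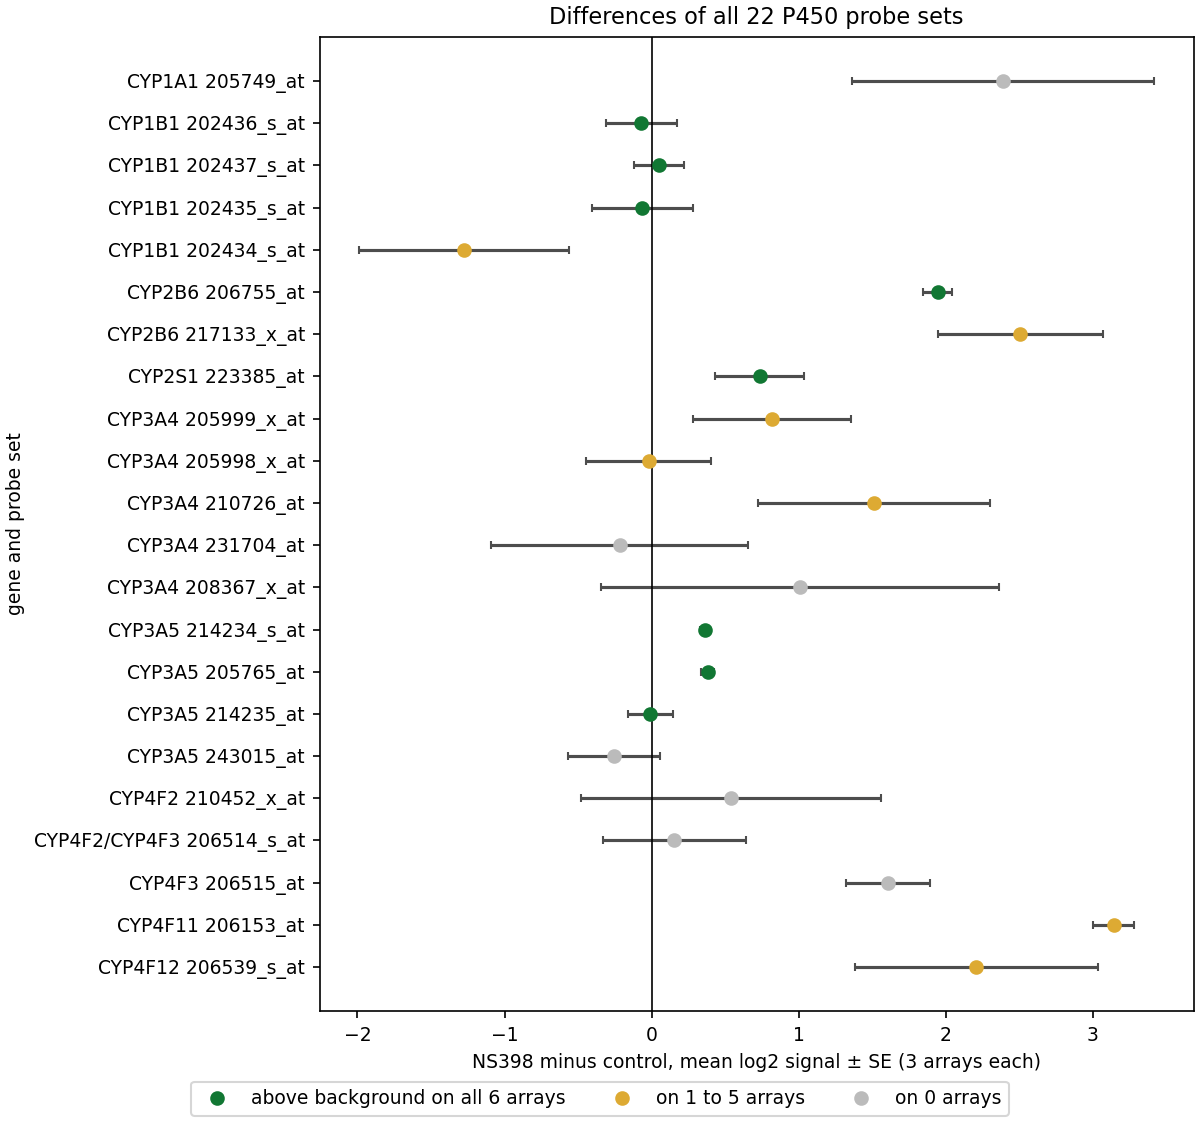
Difference of mean log2 signal, NS398 minus control, of the 22 probe sets (points) with the SE over 3 arrays per group (bars, some shorter than the point). Colour gives on how many of the 6 arrays the probe set lay above background; CYP2B6 206755_at (1.94) and the CYP3A5 pair (0.36 and 0.38) are the green points with the shortest bars, and grey points carry no fold.

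Of the 22 probe sets, 8 lay above background on all 6 arrays, 7 on some and 7 on none. By limma with a variance trend and Benjamini-Hochberg adjustment over all probe sets, 4 of the 22 passed an adjusted p of 0.05, those of CYP2B6 (both), CYP3A5 205765_at and CYP4F11, all higher in NS398 arrays, and 0 were lower. Of all probe sets 6.43% passed, 3.26% higher and 3.17% lower. The groups did not overlap in 9 of 22, with NS398 higher in all 9, where 24.1% of all probe sets did not overlap and 13.4% had NS398 higher. Neither count is evidence, because this contrast chose the genes. The median difference was 0.46 over the 22 and 0.06 over all probe sets. With the plain limma test 1 of the 22 passed, CYP4F11, where 24 of all 54675 probe sets did. CYP3A5 205765_at no longer passed without control replicate 2, control replicate 3, NS398 replicate 1, NS398 replicate 2 or NS398 replicate 3, while CYP2S1 passed without control replicate 1 and CYP4F12 without NS398 replicate 2.

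**Figure D3:**
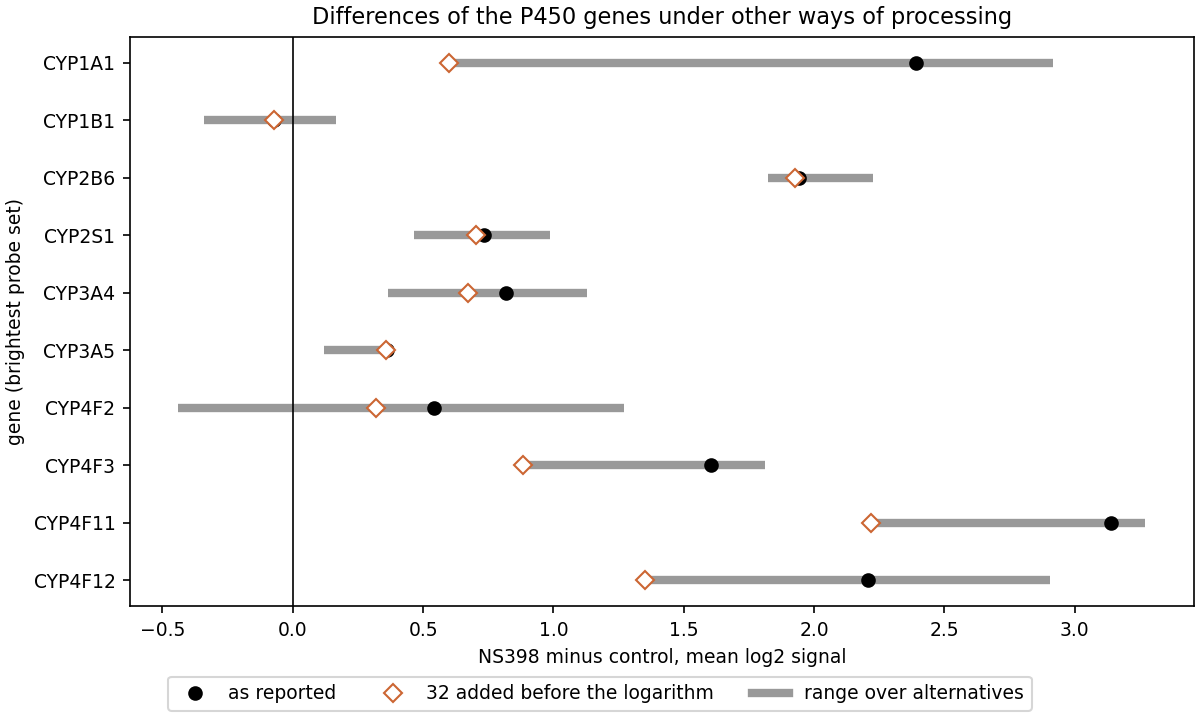
Difference of mean log2 signal, NS398 minus control, of the brightest probe set of each gene as reported (black), with 32 added to the signal before the logarithm (open diamonds), and the range over all alternatives, including an average over the probe sets of a gene (grey bars). CYP2B6 ranged from 1.82 to 2.22 and CYP1B1 from -0.34 to 0.17, while the points of CYP1A1, CYP4F2 and CYP4F3 (both groups below background) and of CYP4F11 and CYP4F12 (control below it) are not measured sizes.

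Measures of array quality and of other cells are set beside these differences. The signal of the 3′ end of ACTB over that of its 5′ end, which rises as RNA degrades, was 1.27 to 1.32 in control and 1.45 to 1.71 in NS398 arrays (p = 0.1 by a two-sided exact permutation test, which cannot go lower with 3 arrays a group), and for GAPDH the exact permutation p was 0.5. The 18S rRNA control probe set was at 3453 to 4856 and 4825 to 23625. For 18S rRNA the exact permutation p was 0.2. Their part in the differences was not tested. Of 12 markers of colon epithelium 10 lay above background on all 6 arrays, with summed signals of 134400 to 152963 in control and 165561 to 174854 in NS398 arrays, while CDX1 and CDX2 lay below it on all 6. Their median difference was 0.03, but single markers moved by limma after adjustment. KRT20 (1.15), LGALS4 (0.38) and CEACAM5 (4.09) were higher, and VIL1 (-0.71) and TFF3 (-1.58) lower. Of 10 hepatocyte markers 8 lay below background on all 6 arrays, ALB, the defining one, among them. The summed signal of the 10 was 6019 to 8458 in control and 5739 to 6477 in NS398 arrays. Above background on all 6 arrays were APOH, with group signals of 5759 and 5316, and TTR. TTR fell from 1235 to 330 (limma adjusted p = 0.00227). The markers of other cells were mostly below background on every array, with 5 of 7 for fibroblasts, 4 of 4 for leukocytes and 5 of 6 for endothelium. Summed signals in control and NS398 arrays were 452 to 600 and 713 to 912, 87.1 to 117 and 113 to 139, and 222 to 354 and 270 to 321. Of the fibroblast markers, COL1A1 lay above background on all 6 arrays. LUM was higher in NS398 arrays by limma (adjusted p = 0.00514), at least 1.39-fold, with all 3 control arrays below background.

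Other genes of the pathways in which these enzymes work were taken from 7 textbook lists, with the brightest probe set standing for a gene, and tested in the same fit. Of 109 genes measured 15 rose and 7 fell, where 10.1% of all 19775 genes passed, 5.23% higher and 4.85% lower. In the AHR list, 1 of 10 rose and 1 fell, with a median difference of -0.15 against 0.06 over all genes. AHR itself had signals of 1207, 1581 and 1171 in control and 1228, 1048 and 1187 in NS398 arrays, a difference of -0.18 ± 0.15 that did not pass (limma adjusted p = 0.586). Its partner ARNT fell from 624 to 375 (-0.74 ± 0.14, adjusted p = 0.0276). For TIPARP and AHRR, which feed back on the receptor, the differences of -0.53 and -0.13 did not pass (adjusted p = 0.0923 and 0.785). NQO1, a quinone reductase under both AHR and NRF2, rose from 11902 to 18351 (0.62 ± 0.14, adjusted p = 0.00750). ARNT did not pass without control replicate 2, control replicate 3, or any 1 NS398 array, which left 1 or 2 genes called. With the mean of its probe sets ARNT differed by -0.41 ± 0.26 and did not pass.

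Among 15 receptors and factors that control P450 genes 4 rose and 1 fell (median 0.30). CEBPB, a factor of the acute phase and of liver genes, rose from 8975 to 22432 (1.32 ± 0.11, limma adjusted p = 4.14e-05) and its relative CEBPA from 446 to 1195 (1.42 ± 0.42, adjusted p = 0.0126). The study lists CEBPB among its downregulated genes, opposite to the direction by the array labels. NR1H3, the oxysterol receptor LXR alpha, rose from 1911 to 3715 (0.96 ± 0.22, adjusted p = 0.00515). PPARA, the fatty acid receptor that governs CYP4A genes, had 476, 528 and 563 in control and 897, 802 and 929 in NS398 arrays and rose by 0.75 ± 0.10 (adjusted p = 0.0118). With the mean of its probe sets PPARA differed by 0.70 ± 0.21 and did not pass. FOXA2, a forkhead factor of gut and liver, fell by 0.76 on the log2 scale (adjusted p = 0.0203). NR1I3 lay between 7.6 and 37.2 on the 6 arrays, below background, and NR1I2 and HNF4A had no probe set of their own among those used here. RXRA, the shared partner of these receptors, differed by 0.30 ± 0.29 (adjusted p = 0.496). Without control replicate 2 FOXA2 did not pass. Without control replicate 3, NS398 replicate 1 or NS398 replicate 2 the 5 calls became 3, and without NS398 replicate 3 they became 2, CEBPB and NR1H3.

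Of 16 genes for electron supply and haem turnover 3 rose and 1 fell (median 0.10). POR, the reductase of all microsomal P450s, had signals of 862, 602 and 838 in control and 774, 938 and 953 in NS398 arrays, a difference of 0.22 ± 0.19 that did not pass (limma adjusted p = 0.564). CYB5R3, the reductase of cytochrome b5, fell from 4949 to 2409 (-1.04 ± 0.14, adjusted p = 7.67e-04), while cytochrome b5 itself (CYB5A) differed by 0.09 ± 0.10 (adjusted p = 0.719). ALAS1, the first enzyme of haem synthesis, differed by 0.21 ± 0.10 (adjusted p = 0.408). BLVRB, a biliverdin reductase, rose from 2319 to 4377 (0.92 ± 0.12, adjusted p = 0.00106), UROS, a haem synthesis enzyme, from 645 to 1035 (0.68 ± 0.12, adjusted p = 0.0196), and haem oxygenase HMOX1 from 93.5 to 243 (1.38 ± 0.43, adjusted p = 0.0435). UROS and HMOX1 did not pass without control replicate 2, control replicate 3, or any 1 NS398 array, which left 2 genes called. Neither passed with median centring, and HMOX1 did not pass with quantile normalisation. With the mean of its probe sets UROS differed by 0.38 ± 0.25 and did not pass. Among the control arrays, HMOX1 lay above background on only 1.

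Other P450 genes were mostly dim. Of 9 further xenobiotic P450s 0 lay above background on all 6 arrays, and 1 passed, CYP2A6, a nicotine-oxidising enzyme of the family CYP2, with 68.1, 52.2 and 59.9 in control and 158.9, 127.9 and 174.9 in NS398 arrays (limma adjusted p = 0.0335). Its control arrays were below background, its probes are of the x_at kind, and CYP2A and CYP2B transcripts are similar in sequence. With the mean of its probe sets CYP2A6 did not pass. Of 10 genes in the list of further fatty acid P450s with the epoxide hydrolase EPHX2, CYP4V2, a fatty acid hydroxylase known from the retina, rose from 303 to 527 (0.80 ± 0.12, adjusted p = 0.0216). CYP4X1 passed as lower (adjusted p = 0.0448) with all 6 signals, 0.9 to 66.9, below background. Neither list kept a call without control replicate 2, control replicate 3, or any 1 NS398 array. Of 20 P450s of sterol, steroid, vitamin and prostanoid metabolism 0 passed and 14 were below background on all 6 arrays. Medians of the 3 lists were 0.34, -0.29 and 0.37.

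Enzymes that conjugate or hydrolyse the products of P450s moved in both directions, with 5 of 30 higher and 3 lower (median 0.24). EPHX1, the microsomal epoxide hydrolase, rose from 1768 to 4780 (1.44 ± 0.24, limma adjusted p = 6.66e-04), and the glutathione transferase gene GSTM2 from 183 to 404 (1.14 ± 0.11, adjusted p = 0.00581). GSTO1 fell from 9105 to 6002 (-0.60 ± 0.11, adjusted p = 0.00640). MGST3, a microsomal transferase, fell from 4342 to 2986 (-0.54 ± 0.07, adjusted p = 0.00989), although the mean of its probe sets was higher in NS398 arrays (0.64). Without control replicate 3 the 8 calls became 3, and without control replicate 2 or any 1 NS398 array they became 4.

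**Figure D4:**
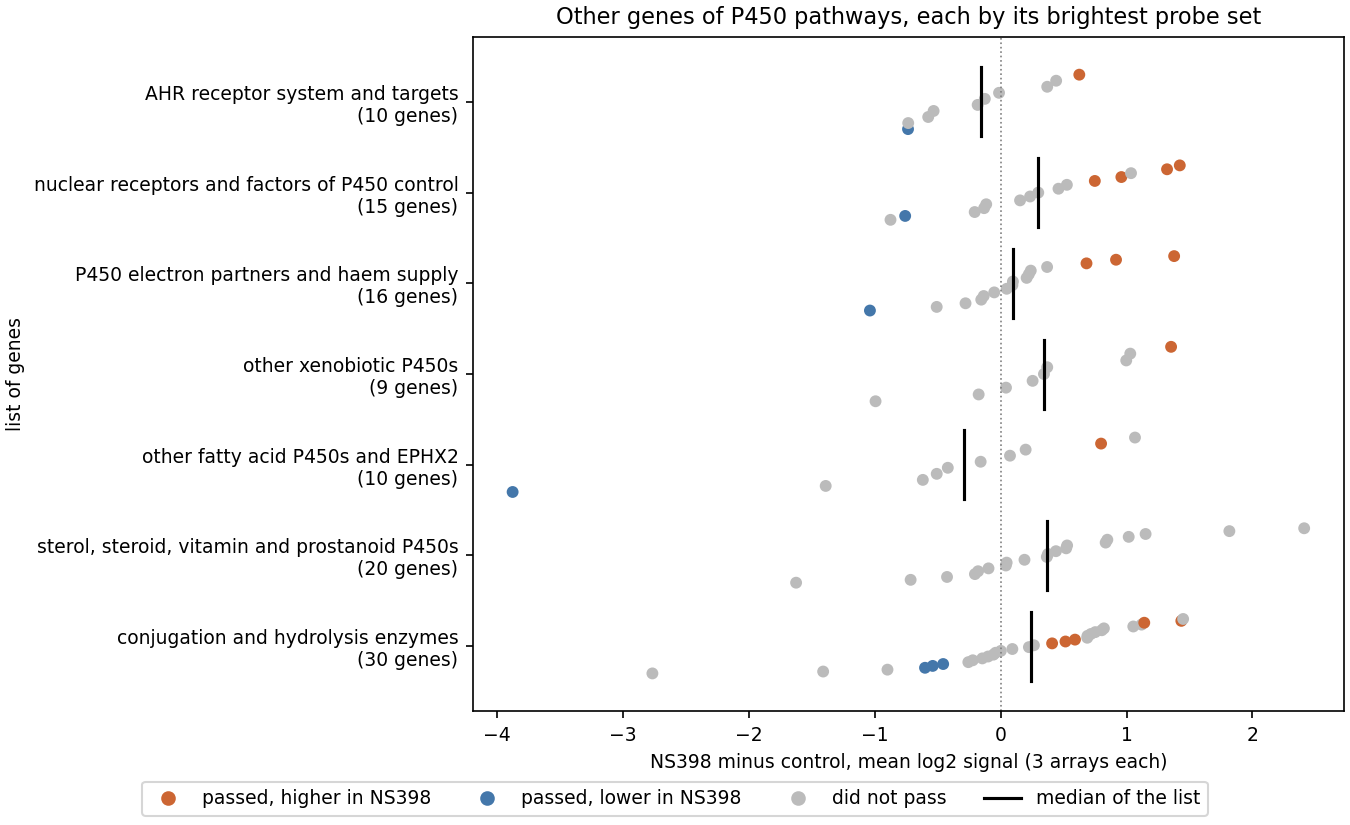
Difference of mean log2 signal, NS398 minus control, of 109 genes in 7 lists, each by its brightest probe set (points; genes in 2 lists appear in both). Coloured points passed limma with a variance trend, the black line is the median of a list, and 0 of the 20 sterol, steroid, vitamin and prostanoid P450s passed.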

How the data were processed

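The deposited values are linear intensity values, 1 signal per probe set and array, which the authors had summarised and scaled from the scans. Per the labels the affy package was used, whose version is not given in the sources used here. Array medians ranged from 65 to 80.2, so they are not the quantile-normalised gcRMA values of the study's methods. They were put on the log2 scale without an offset. Probe sets were named by the platform annotation (41097 name 1 gene), updated by Entrez number through RefSeq. All 54675 probe sets were fitted with limma 3.58.1 (R 4.3.3), treatment as the only term, eBayes with a robust variance trend (prior degrees of freedom 7.07 at the median, against 1.36 for the plain fit), and Benjamini-Hochberg adjustment over all of them at 0.05. The SAM test of the study's methods was not run. Genes were read from their brightest probe set. Named beyond the P450 genes described are up to 4 genes with the smallest p in each list, the 3 genes closest in profile to CYP4F11, and, chosen after their values were seen, FOXA2, the receptors, the AHR feedback genes and the P450 partners that did not pass. The genes, lists and tests were chosen with earlier results of these data known. Arrays have no detection calls here, and the number of arrays and the signal over background limit precision. The alternatives were the plain fit, quantile normalisation, median centring, a mean log2 signal above 4 or 7, an offset of 32, array weights, the replicate number as a block, an average over the probe sets of a gene, other background levels, and leaving out each array. The fit was tested on simulated data. Promoters were aligned with Biopython 1.88, and figures drawn with matplotlib 3.10.9 (Python 3.11.15).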

Additional observations from a re-analysis of the deposited data

How the results depend on the processing

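Signal over background limits many values here, since of the 22 P450 probe sets 7 were below it on all 6 arrays and 7 on some, and with 3 arrays per group single calls are easily lost. The number of P450 probe sets that passed was 4 of 22, where 3513 of all 54675 did, and 1 with the plain test, where 24 did. Without single arrays it was 3 to 5, where 1826 to 3984 of all did, and under the other alternatives 3 to 6. A mean log2 signal above 7 gave 5 of 11 P450 probe sets and 4713 of 22399 in all. One above 4 gave 5 of 19 and 4143 of 41237. Array weights gave 6 of 22 and 4205 of 54675. The replicate number as a block (replicate block) gave 3, and same-numbered arrays did not deviate together (correlations of -0.14, -0.06 and -0.10). These are deviations from means of only 3 arrays, so they cannot tell whether same-numbered samples were paired, which the labels do not state. In the lists, counts of calls were 2 for AHR, 5 for receptors and factors, 4 for electron and haem genes, 1 for xenobiotic P450s, 2 for fatty acid P450s and 8 for conjugation. With the plain test each of these was 0. Median centring gave 1 for AHR, 2 for electron and haem genes, 0 for xenobiotic and 1 for fatty acid P450s. The replicate block gave 1 for AHR, 2 for electron and haem genes, 0 for xenobiotic P450s, 1 for fatty acid P450s and 5 for conjugation. With an average over the probe sets of a gene the counts were 1 for AHR, 3 for receptors, 0 for xenobiotic P450s, 1 for fatty acid P450s and 5 for conjugation. A mean log2 signal above 7 left 0 calls among xenobiotic P450s, and this limit, a mean log2 signal above 4 and the offset of 32 each left 1 among fatty acid P450s. Without single arrays the counts ran from 1 to 2 for AHR, 2 to 5 for receptors, 2 to 5 for electron and haem genes, 0 to 1 for xenobiotic P450s, 0 to 2 for fatty acid P450s and 3 to 8 for conjugation. The cause of these changes was not tested. Of the genes named with a call, MGST3 reversed to 0.64 with the mean of its probe sets. Of all probe sets 3513 passed, 1782 higher and 1731 lower, against 864 higher and 1943 lower with median centring, 2462 in all with the replicate block, 24 with the plain test, and 1826, 1896 and 1876 when NS398 replicate 1, NS398 replicate 2 or control replicate 3 was left out. CYP2B6 206755_at passed in 13 of 14 alternatives, all but the plain test, and CYP4F11 in 13 of 13, which is no independent support, since this contrast chose the genes.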
